A study of Mus musculus with 26 samples.

Results

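The genes described here encode the proteins of the cytoplasmic ribosome and the paralogues of these genes. They are the protein-coding rows of the deposited table whose symbol starts with Rpl, Rps or Rplp followed by a number, leaving out symbols with -ps and the kinase genes that start with Rps6k. The rule took in 86 of 51124 genes, of which 49 belong to the large subunit, 32 to the small subunit and 3 to the stalk. The remaining 2, *Rps19bp1* and *Rps23rg1*, are caught by their names but encode no ribosomal subunit, and they were counted apart.

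The libraries were made from the total RNA of whole adult testes, freed of ribosomal RNA. Each of 3 genotypes had 2 of them, N1 and N2 from wild type (WT), N3 and N4 from *10xPerf* and N5 and N6 from *10xBulge*, each from a different mouse. Both knock-in lines were made by Cas9 injection into B6D2F1/J hybrid embryos and were kept as homozygotes. Each carries 10 sites for piR-A, a pachytene piRNA, behind the coding part of the last exon of *Ythdc2*, a meiotic RNA helicase gene. The *10xPerf* sites match the whole of piR-A, whereas those of *10xBulge* leave its bases 10 and 11 unpaired. The wild-type mice carry no sites, and which parents or litters they came from is not given in the sources used here. Nothing in the labels ties a library of a genotype to a library of another. The smallest p that exact permutation allows for 2 libraries against 2 is 0.33.

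A ribosome holds a single copy of most of its proteins, and the genes for them are expressed in every cell type. Several of these genes lie on the X chromosome, which is silenced during meiosis in the male germline. Intronless or duplicated autosomal copies such as *Rpl10l* and *Rpl39l* are known for their expression in testis, where they are thought to supply the protein while the X-linked gene is silent. In a bulk testis library the level of such a gene adds up germ cells and somatic cells, and fewer cells of a type cannot be told apart from less RNA per cell.

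The levels of several cell type markers differed between *10xBulge* and the other genotypes, and the part of cell composition in the results below was not tested. The summed level of 10 spermatid markers, such as the protamine gene *Prm1*, lay between 494034 and 695531 normalized counts in N1 to N4, but was 1707 in N5 and 1053 in N6, and all 10 were lower in *10xBulge* by limma. No marker was at 0 in a library. The summed level of 8 spermatocyte markers overlapped between the genotypes, from 35433 to 51615 over the 6 libraries, and 0 of the 8 passed the test, with 1 at an unadjusted p under 0.05. Somatic markers were higher in *10xBulge*, namely 4 of 6 for Sertoli cells (10629 to 17011 in N1 to N4, 38608 in N5 and 27714 in N6), 4 of 6 for Leydig cells (43405 to 76468, against 285571 and 137284) and 5 of 5 for macrophages (1950 to 3027, against 9785 and 5813). Of the spermatogonial markers 1 of 7 was higher (4464 to 9528, against 16631 and 13341), and of those for peritubular muscle and vessels 0 of 4 were called, with 0 at an unadjusted p under 0.05.

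Ribosomal protein mRNAs were abundant in every genotype. Their 86 rows held 1.08% of all normalized counts in N1 and 0.913% in N2, 0.781% in N3 and 1.07% in N4, and 1.38% in N5 and 1.15% in N6. Both *10xBulge* libraries thus lay above the other 4, with a mean share of 1.26% ± 0.17 (SD, n = 2) against 0.994% ± 0.12 in wild type and 0.926% ± 0.21 in *10xPerf*. The difference of 0.268 percentage points between *10xBulge* and wild type had an exact two-sided permutation p of 0.33, the smallest this design allows. As a share of the counts of protein-coding genes (chosen after seeing the data), the separation was lost, with 1.41% in N6 against 1.42% in N1 (difference 0.238 points between *10xBulge* and wild type, exact p = 0.67). Between *10xPerf* and wild type the shares overlapped, with a difference of -0.0678 points (exact p = 0.67).

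The members spanned a wide range of levels, and 76 of the 86 exceeded 1000 normalized counts in each of the 6 libraries. The median of their mean over all libraries was 5392 normalized counts. The highest by this measure were the stalk gene *Rplp0* (39033), *Rps14* (22173) and *Rpl41* (18552), the last of which encodes the smallest ribosomal protein. Divided by the length of the principal transcript, the order was *Rpl41* with 31877 normalized counts per kilobase, *Rplp0* with 28743, *Rplp1* with 28637 and *Rps14* with 28246. The lowest were *Rps27rt*, a copy of *Rps27* that was listed at 0 in all libraries, then *Rps23rg1*, between 0 and 6.09, and *Rpl3l*, the muscle paralogue of *Rpl3*, with a mean of 10.2. *Rps27rt* and *Rps23rg1* stayed under the filter, which asks for 10 normalized counts or more in 2 or more libraries, so that 84 members were tested.

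The libraries of a genotype differed from each other in most of these genes at once. N5 was above N6 in 76 of 84 members, with a median difference of 0.61 on the log2(value + 1) scale, and N3 was above N4 in only 5 of 84, with a median difference of -0.60. N1 was above N2 in 54, with a median difference of 0.24. Among the 84 tested members, the largest differences between replicates of a genotype, past 2 on the log2 scale, were those of *Rpl3* (14747 normalized counts in N5, 3667 in N6) and *Rpl35* (6169 and 1520) in *10xBulge*. Among tested members the difference between N5 and N6 rose with the GC content of the transcript (Spearman's rho = 0.384 across 84 genes, which share the libraries and are not independent). For N1 minus N2 this rho was 0.113, and for N3 minus N4 it was -0.094.

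**Figure D1:**
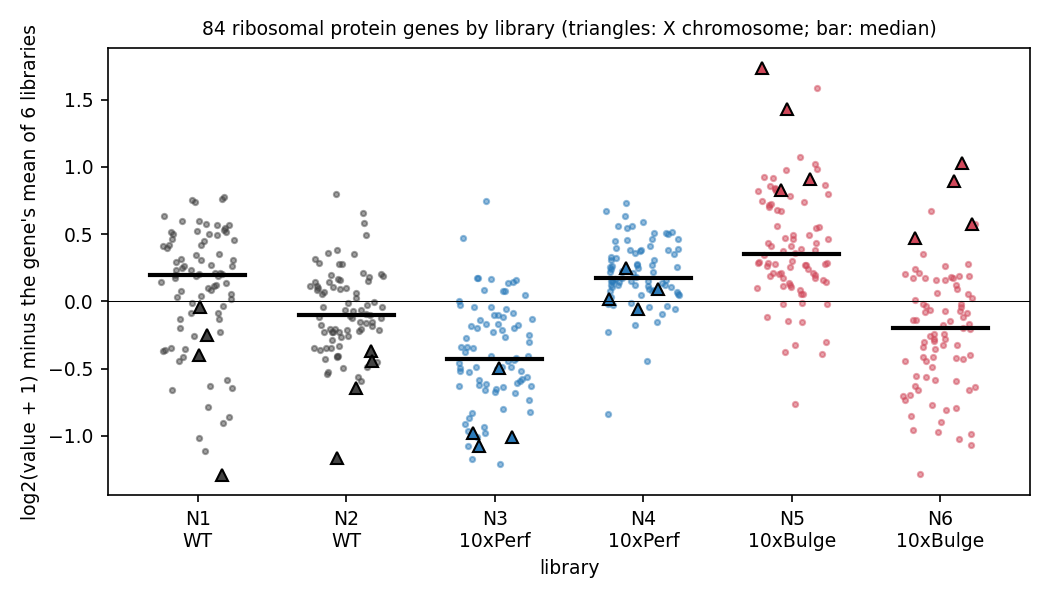
Log2(value + 1) of each of the 84 tested ribosomal protein genes in a library, minus the mean of that gene over the 6 libraries (vertical axis), for each library (horizontal axis). Points are autosomal genes, triangles the 4 X-linked genes and black bars the library medians, which run from -0.43 in N3 to 0.35 in N5, and in N5 and N6 all 4 triangles lie above the bar.

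Against wild type, ribosomal protein mRNAs as a group had a median change close to 0 in *10xBulge*, and only 5 members passed the test. *Rps4x*, *Rpl36a* and *Rpl10*, encoded on the X chromosome, and the autosomal *Rpl7l1* were higher, and the testis paralogue *Rpl39l* was lower. Of the 84 members tested 4 were higher, where 11.4% of all 23782 genes tested were higher, and 1 was lower, where 23.0% of all genes were lower (limma, Benjamini-Hochberg adjusted p under 0.1). The median log2 fold change was 0.05 for the members and -0.03 for all genes, and the interquartile range was 0.60 for the members and 1.98 for all genes. Both *10xBulge* libraries lay above both wild-type libraries in 16 members, against 28.9% of all genes, and below both in 8, against 33.2% of all genes.

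The median of the members moved with the library left out, from -0.27 without N5 to 0.33 without N6. That of all genes stayed between -0.07 and -0.01. Scaled to equal library totals, all genes tested split into 5789 higher and 4745 lower, in place of 2712 and 5466, the median of all genes shifted to 0.36, that of the members to 0.43, and 12 members were higher.

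Within the large subunit 3 of 49 members were higher and 1 was lower, with a median log2 fold change of -0.03. In the small subunit 1 of 31 tested was higher and none was lower by limma, with a median of 0.17. None of the 31 was lower at an unadjusted p under 0.05 either, where 5835 of all 23782 genes tested were. *Rps19bp1*, which encodes a binding partner of a small subunit protein, had a log2 fold change of 0.04 (adjusted p = 0.970).

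**Figure D2:**
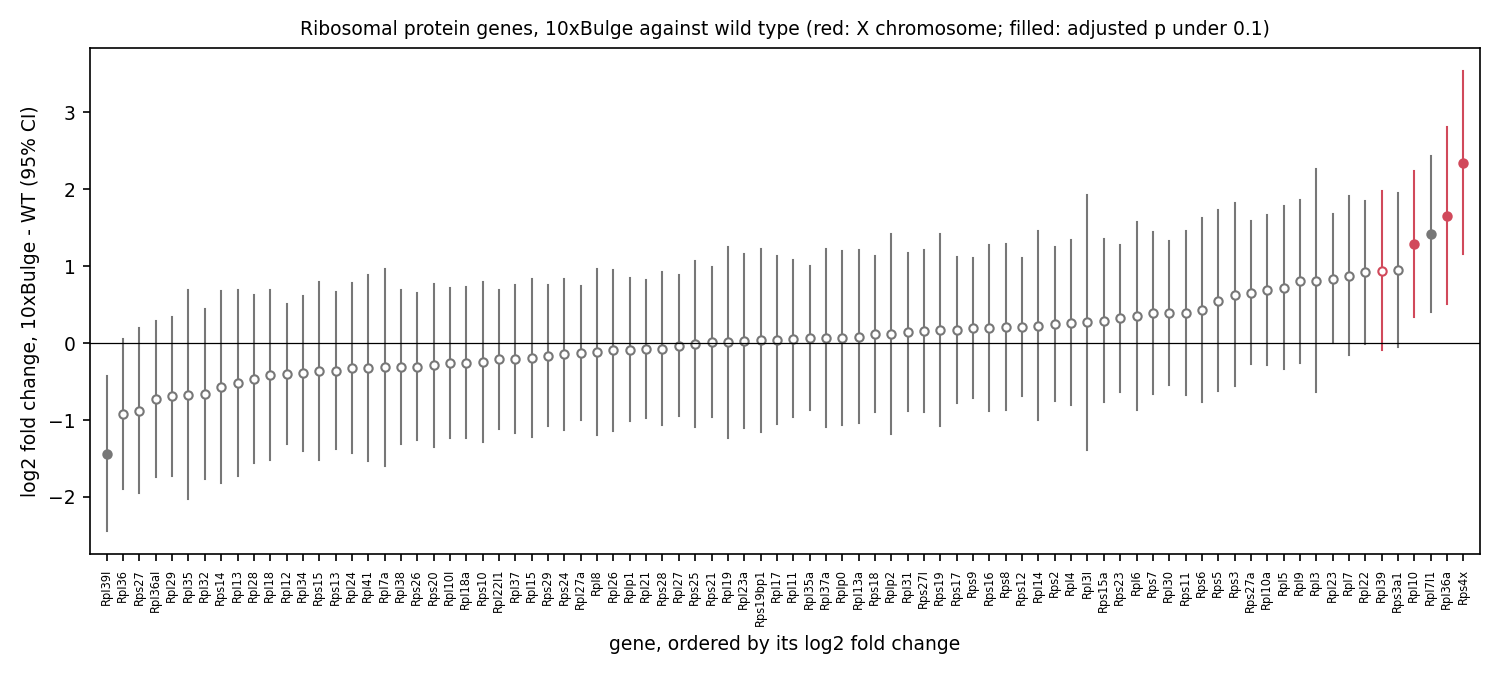
Log2 fold change of *10xBulge* against wild type on the log2(value + 1) scale (vertical axis, points, with 95% confidence intervals from limma as lines) of the 84 tested ribosomal protein genes, ordered by that value (horizontal axis). Red marks the 4 X-linked genes and filled points an adjusted p under 0.1, and the values run from -1.43 for *Rpl39l* to 2.35 for *Rps4x*.

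All 4 X-linked members, *Rps4x*, *Rpl36a*, *Rpl10* and *Rpl39*, were among the 6 with the highest log2 fold change, and in each of them both *10xBulge* libraries lay above the other 4 libraries. This grouping by chromosome was chosen after the values were seen, so it is given without a test. Of all genes tested, 28.9% had both *10xBulge* libraries above both wild-type libraries, and 30.7% had them above both *10xPerf* libraries. Among 762 other X-linked protein-coding genes tested, these numbers were 346 and 323. The median log2 fold change was 1.47 over the 4 X-linked members, of which 3 were called higher, and 0.03 over the 80 autosomal members tested, of which 1 was called higher and 1 lower. Other protein-coding genes had a median of 0.59 on the X chromosome (762 tested, 192 higher and 172 lower) and 0.19 on the autosomes (16583 tested, 2367 higher and 2714 lower).

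*Rps4x* encodes a small subunit protein (GRCm38 chromosome X, 102184941 to 102189394, minus strand, 7 exons). Its level was 469 normalized counts in N1 and 736 in N2, 545 in N3 and 1367 in N4, and 3829 in N5 and 2343 in N6. The *10xBulge* libraries were the highest and the other genotypes overlapped. Against wild type its log2 fold change came to 2.35 ± 0.53 (SE), or 5.09-fold, with an adjusted p of 0.0105, and without N1 it was 2.02 with an adjusted p of 0.116.

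*Rpl10* encodes a large subunit protein that joins the ribosome late in its assembly (chromosome X, 74270812 to 74273135, plus strand, 6 exons). It stood at 1863 normalized counts in N1 and 1900 in N2, 1249 in N3 and 2365 in N4, and 4609 in N5 and 4583 in N6. The replicates of wild type and of *10xBulge* were close to each other, and those of *10xPerf* spanned the wild-type values. The log2 fold change of *10xBulge* against wild type was 1.29 ± 0.42, or 2.44-fold (adjusted p = 0.0525). With 1 library left out it ranged from 1.27 to 1.30, with an adjusted p of 0.174 without N1, 0.134 without N2 and 0.105 without N5. Reads of *Rpl10* may be split with its processed copies, 6 rows that together held 54.1% as many normalized counts as the gene. A protein-coding row among the copies, *Rpl10-ps3* on chromosome 9, which the name rule leaves out, held 1112 normalized counts in N1 and 786 in N2, against 3384 in N5 and 1972 in N6. Summed with these rows, *Rpl10* had a log2 fold change of 1.36 (adjusted p = 0.0494).

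*Rpl36a* (chromosome X, 134585654 to 134588062, plus strand, 5 exons), a gene for a large subunit protein near the exit site for transfer RNA, was low, with 263 normalized counts in N1 and 139 in N2, 222 in N3 and 316 in N4, and 843 in N5 and 433 in N6. The log2 fold change of *10xBulge* against wild type was 1.66 ± 0.51, or 3.16-fold (adjusted p = 0.0413). This call rested on single libraries and on the copies of the gene. The adjusted p was 0.212 without N2 and 0.163 without N5, and it was 0.163 with a log2 fold change of 1.21 after summing the gene with its 4 processed copies, which held 142% as many normalized counts as the gene itself.

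*Rpl39* encodes a very small protein of the large subunit that lies in the exit tunnel of the nascent chain (chromosome X, 37082520 to 37085402, minus strand, 3 exons). It was at 1566 normalized counts in N1 and 1186 in N2, 801 in N3 and 1713 in N4, and 2859 in N5 and 2402 in N6. The *10xBulge* libraries again lay above the rest, but the log2 fold change against wild type of 0.94 ± 0.46 did not pass the test (adjusted p = 0.163, 95% confidence interval -0.09 to 1.98).

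*Rpl39l*, the testis paralogue of *Rpl39*, was the only member called lower (GRCm38 chromosome 16, 10170226 to 10174911, plus strand, 3 exons). It stood at 15531 normalized counts in N1 and 14626 in N2, 6633 in N3 and 13717 in N4, and 5457 in N5 and 5693 in N6. The *10xBulge* libraries were the lowest and close to each other, and N3 was nearer to them than to N4. The log2 fold change of *10xBulge* against wild type was -1.43 ± 0.45, or 0.37 times the wild-type level (adjusted p = 0.0443). With 1 library left out it ranged from -1.48 to -1.39, with an adjusted p of 0.170 without N1 and 0.122 without N2.

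*Rpl10l*, the intronless testis paralogue of *Rpl10* (chromosome 12, 66283379 to 66284401, minus strand, 1 exon), stood in contrast at 10867 normalized counts in N1 and 7113 in N2, 5636 in N3 and 8290 in N4, and 8608 in N5 and 6284 in N6. The genotypes overlapped throughout. Its log2 fold change in *10xBulge* was -0.26 ± 0.43 (adjusted p = 0.703, 95% confidence interval -1.23 to 0.72), and the sign turned under scaling by library totals, with 0.13, and without N1, with 0.05. The change of *Rpl39l* against that of *Rpl10l* was not tested.

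**Figure D3:**
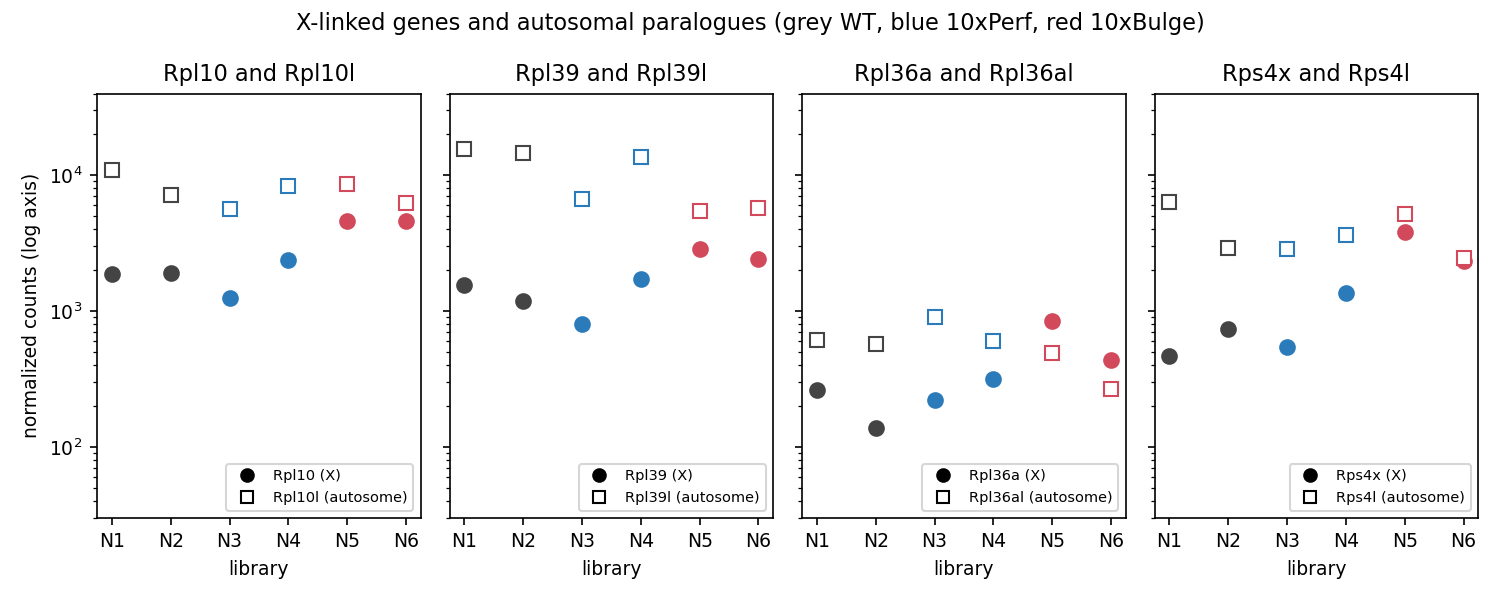
Normalized counts on a log axis (vertical) in each of the 6 libraries (horizontal) of the 4 X-linked ribosomal protein genes (filled circles) and their autosomal paralogues (open squares), with grey for wild type, blue for *10xPerf* and red for *10xBulge*. In each panel the circles of N5 and N6 lie above those of the other 4 libraries, and only for *Rpl36a* do they lie above the squares of the same library.

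Within a library, the testis paralogues outweighed their X-linked partners less in *10xBulge* than in the other genotypes, a comparison that does not depend on how libraries are scaled. The log2 ratio of *Rpl39l* over *Rpl39* was 3.31 in N1 and 3.62 in N2, 3.05 in N3 and 3.00 in N4, but 0.93 in N5 and 1.24 in N6. That of *Rpl10l* over *Rpl10* was 2.54 in N1 and 1.90 in N2, 2.17 in N3 and 1.81 in N4, but 0.90 in N5 and 0.46 in N6. Both *10xBulge* libraries lay below the other 4 for both pairs. The difference against wild type was -2.38 for *Rpl39l* over *Rpl39* and -1.55 for *Rpl10l* over *Rpl10*, each with an exact two-sided permutation p of 0.33, the smallest possible.

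Per length of the principal transcript (805 bases for *Rpl39l* and 612 for *Rpl39*), *Rpl39l* was 7.54 and 9.38 times as abundant as *Rpl39* in N1 and N2, 6.29 and 6.09 times in N3 and N4, and 1.45 and 1.80 times in N5 and N6. *Rpl39l* thus made up 88.3% and 90.4% of the mRNA of the pair in wild type, and 59.2% and 64.3% in *10xBulge*. *Rpl10l* (1023 bases) was 4.88 and 3.13 times as abundant per length as *Rpl10* (855 bases) in N1 and N2, 3.77 and 2.93 times in N3 and N4, and 1.56 and 1.15 times in N5 and N6. Its share of the pair was 83.0% and 75.8% in wild type and 61.0% and 53.4% in *10xBulge*. *Rpl10l* and *Rpl39l* were the more abundant partner per length in all 6 libraries, but for *Rpl10l* this order rested on leaving out the processed copies of *Rpl10*. With *Rpl10-ps3* added to *Rpl10*, each per its own length (chosen after seeing the data), *Rpl10l* was 2.93 and 2.14 times as abundant in N1 and N2 and 2.57 and 1.89 times in N3 and N4, but 0.859 and 0.775 times in N5 and N6.

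The other X-linked members have autosomal relatives as well. *Rpl36al*, an intronless copy of *Rpl36a* on chromosome 12, was measured at 617 and 576 normalized counts in the wild-type libraries, 908 and 604 in those of *10xPerf* and 487 and 266 in those of *10xBulge*, with a log2 fold change of -0.73 ± 0.45 in *10xBulge* (adjusted p = 0.264). The log2 ratio of *Rpl36al* over *Rpl36a* was 1.23 in N1 and 2.05 in N2, 2.03 in N3 and 0.93 in N4, but -0.79 in N5 and -0.70 in N6, a difference of -2.39 against wild type (exact p = 0.33). *Rps4l*, a relative of *Rps4x* on chromosome 6 that is annotated as a transcribed processed pseudogene and so is no member, reached 6390 and 2890 normalized counts in the wild-type libraries, 2873 and 3607 in N3 and N4, and 5194 and 2466 in N5 and N6. Its log2 fold change in *10xBulge* was -0.26 (adjusted p = 0.750), and the log2 ratio of *Rps4l* over *Rps4x* went from 3.77 and 1.97 in N1 and N2 and 2.40 and 1.40 in N3 and N4 to 0.44 and 0.07 in *10xBulge*.

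**Figure D4:**
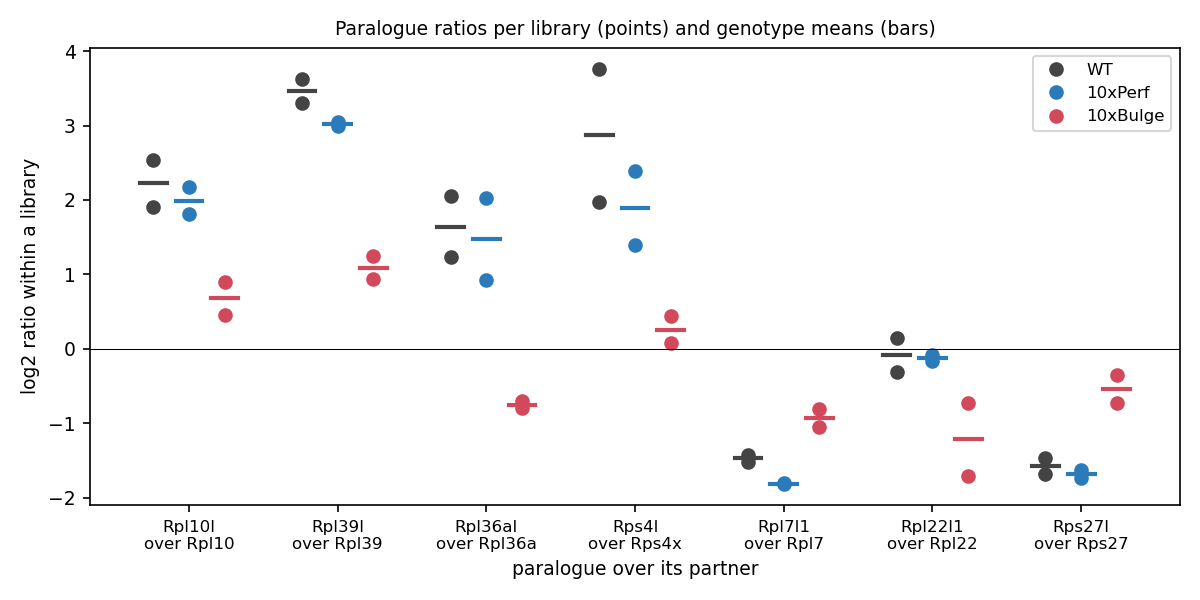
Log2 ratio of a paralogue over its partner within a library (vertical axis), for 7 pairs (horizontal axis), with a point per library and a bar per genotype mean in grey for wild type, blue for *10xPerf* and red for *10xBulge*. For the 4 pairs with an X-linked partner the *10xBulge* points lie below all others, with differences of the means against wild type from -2.61 for *Rps4l* over *Rps4x* to -1.55 for *Rpl10l* over *Rpl10*.

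Among the pairs without an X-linked partner, the differences in the ratio had either sign. *Rpl7l1*, a relative of *Rpl7* that acts in assembly of the large subunit, rose from 873 normalized counts in N1 and 1511 in N2 to 3596 in N5 and 2633 in N6, with 1248 in N3 and 1963 in N4, a log2 fold change of 1.42 ± 0.45 against wild type (adjusted p = 0.0456). The adjusted p was 0.232 without N1, with a log2 fold change of 1.03, and 0.141 without N5. *Rpl7* itself had a log2 fold change of 0.88 (adjusted p = 0.192), and the log2 ratio of *Rpl7l1* over *Rpl7* differed by 0.54 between *10xBulge* and wild type (exact p = 0.33). For *Rpl22l1* over *Rpl22* the difference was -1.13 and for *Rps27l*, a relative of *Rps27*, over *Rps27* it was 1.04, both without overlap between the libraries (exact p = 0.33). None of these 4 genes passed the test by itself, with log2 fold changes of -0.21 for *Rpl22l1*, 0.92 for *Rpl22*, 0.16 for *Rps27l* and -0.88 for *Rps27* and adjusted p-values from 0.132 to 0.836. Reads of *Rps27* and of *Rps27rt*, which is listed at 0, may not be separable, so the level of *Rps27* may include its copy. *Rpl3l* stayed near the floor of detection, at 6.81 and 16.5 normalized counts in N1 and N2 and at 18.7 and 9.11 in N5 and N6.

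Relative to the other ribosomal protein genes of the same library, the X-linked members also stood higher in *10xBulge*. On the log2 scale, *Rps4x* minus the median of the autosomal members was -3.71 in N1 and -2.69 in N2, -2.94 in N3 and -2.25 in N4, and -0.87 in N5 and -0.99 in N6. For *Rpl10* this difference was -1.73 and -1.32 in the wild-type libraries, -1.75 and -1.46 in N3 and N4, and -0.60 and -0.02 in N5 and N6. In *10xBulge* both genes were thus nearer to the level of a typical autosomal member. For *Rpl39l* it was 1.33 in N1, 1.62 in N2, 0.66 in N3 and 1.08 in N4, but -0.36 in N5 and 0.29 in N6.

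The stalk proteins, which recruit the elongation factors to the large subunit, did not pass the test between *10xBulge* and wild type. *Rplp0* was at 59809 normalized counts in N1 and 34615 in N2, stood at 15623 in N3 and 25901 in N4, and was at 60685 in N5 and 37564 in N6. The *10xPerf* libraries were the lowest and the other genotypes overlapped. *Rplp1* ranged from 10394 in N3 to 15941 in N5 and *Rplp2* from 2150 in N3 to 7512 in N4, with overlap between all genotypes. Log2 fold changes of *10xBulge* against wild type were 0.07 for *Rplp0*, -0.09 for *Rplp1* and 0.12 for *Rplp2*, with adjusted p-values from 0.903 to 0.938.

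In *10xPerf*, no ribosomal protein gene passed the test against wild type. Of the 84 members 0 were higher, where 0.467% of all genes were higher, and 0 were lower, where 0.492% of all genes were lower (limma, adjusted p under 0.1). At an unadjusted p under 0.05 there were 0 higher and 1 lower, *Rplp0*, with a log2 fold change of -1.18 ± 0.50 (adjusted p = 0.791). Of all 23782 genes tested, 781 were higher and 667 lower at this unadjusted cutoff. The median log2 fold change was -0.14 for the members and 0.02 for all genes, and without N3 the median of the members was 0.21. Both *10xPerf* libraries lay above both wild-type libraries in 8 members, against 20.2% of all genes, and below both in 10, against 19.8%. The X-linked members showed no common direction, with log2 fold changes of 0.55 for *Rps4x*, 0.47 for *Rpl36a*, -0.13 for *Rpl10* and -0.22 for *Rpl39*. *Rpl39l* had a log2 fold change of -0.66 ± 0.45 and *Rpl10l* of -0.36 ± 0.43, with adjusted p-values of 0.853 and 0.869. The log2 ratio of *Rpl39l* over *Rpl39* differed by -0.44 (exact p = 0.33) and that of *Rpl10l* over *Rpl10* by -0.23 (exact p = 0.67).

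A processed pseudogene of *Rps3a1*, *Rps3a2* on chromosome 14, was listed at 0 in both wild-type and both *10xBulge* libraries but at 732 normalized counts in N3 and 1066 in N4. *Rps3a1* itself was at 1755 in N1 and 3084 in N2, at 2780 in N3 and 3425 in N4, and at 5634 in N5 and 3584 in N6 (log2 fold change 0.95 in *10xBulge*, adjusted p = 0.149). Reads of so similar a copy are assigned by estimation and are uncertain. A further copy, *Rps3a3*, was between 0 and 2.90 in all libraries.

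The comparison of *10xBulge* with *10xPerf* shares the *10xBulge* libraries with the first comparison and is no independent evidence. Of the 84 members 4 were higher, where 12.9% of all genes were higher, and 0 were lower, where 24.1% of all genes were lower. At an unadjusted p under 0.05, 1 member, *Rpl36al*, was lower (log2 fold change -1.04, adjusted p = 0.115), against 6024 of all 23782 genes tested. The 4 higher members were *Rps4x* (log2 fold change 1.79 ± 0.53, adjusted p = 0.0332), *Rpl10* (1.42 ± 0.42, 0.0343), *Rpl39* (1.16 ± 0.46, 0.0896) and *Rplp0* (1.25 ± 0.50, 0.0956). Over 11 alternatives with no library left out, *Rps4x* and *Rpl10* stayed past the threshold in 11, *Rpl39* in 8 and *Rplp0* in 7. Without N3, which leaves 1 library in *10xPerf*, the log2 fold changes fell to 1.13 for *Rps4x*, 0.96 for *Rpl10*, 0.61 for *Rpl39* and 0.88 for *Rplp0*. With a library left out, the median of the members ran from -0.14 without N3 to 0.46 without N4. That of all genes stayed between -0.13 and -0.03. Scaled to equal library totals, all genes tested split into 5122 higher and 5159 lower, in place of 3077 and 5729, and 11 members were higher. *Rpl36a* had a log2 fold change of 1.19 (adjusted p = 0.114) and *Rpl39l* of -0.78 (adjusted p = 0.230). The median log2 fold change was 0.14 for the members and -0.07 for all genes. Both *10xBulge* libraries lay above both *10xPerf* libraries in 18 members, against 30.7% of all genes, and below both in 5, against 35.3%.

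The other genes of translation were counted in *10xBulge* against wild type, where 11.4% of all genes tested were higher and 23.0% lower. *Rpsa*, *Fau* and *Rack1*, which encode structural parts of the ribosome but are missed by the name rule, had log2 fold changes of -0.08, -0.48 and 0.71 and did not pass. Of 7 elongation factor genes tested, *Eef1b2* was higher (1.37, adjusted p = 0.0711) and *Eef1d*, a further subunit of the same exchange factor, was lower (-2.55, adjusted p = 0.0189). Of 30 initiation factor genes 4 were higher and 4 lower (13.3% each). The helicase genes *Eif4a1* (1.58, adjusted p = 0.0304) and *Eif4a2* (1.54, adjusted p = 0.0415) and the X-linked *Eif2s3x* (1.89, adjusted p = 0.0253), for a subunit of the factor that brings the initiator transfer RNA, were among the higher, and *Eif1* (-1.28, adjusted p = 0.0589) among the lower. *Eif1ax*, also an X-linked initiation factor gene, did not pass (0.08, adjusted p = 0.917). Of 5 cytoplasmic poly(A) binding protein genes, *Pabpc4* was higher (1.33, adjusted p = 0.0520) and *Pabpc1l* lower (-2.87, adjusted p = 0.0252).

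Of 28 genes for ribosome biogenesis, 3 were higher (10.7%, near the 11.4% of all genes) and 0 were lower by limma. At an unadjusted p under 0.05 also 0 were lower, where 5835 of all 23782 genes tested were. The median log2 fold change was 0.50, against -0.03 for all genes. This median was not particular to *10xBulge*. In *10xPerf* against wild type it was 0.47, with 0.02 for all genes, and in *10xBulge* against *10xPerf* it was 0.20. The 3 higher in *10xBulge* were *Rrn3*, for an initiation factor of RNA polymerase I (1.45, adjusted p = 0.0322), *Nop56* (1.34, adjusted p = 0.0446) and *Fbl*, for the methyltransferase fibrillarin (1.55, adjusted p = 0.0536). Of 8 regulators of mRNAs with a terminal oligopyrimidine tract, such as *Larp1* and *Mtor*, 0 passed in either direction. Of 78 mitochondrial ribosomal protein genes 7 were higher (8.97%, against 11.4% of all genes) and 2 were lower (2.56%, against 23.0%), with a median of 0.24, and *Mrps36*, whose product is now assigned to a mitochondrial dehydrogenase complex, had the smallest p among them (-2.29 ± 0.38, adjusted p = 0.00184). In *10xPerf* against wild type none of the genes in these lists was called by limma. At an unadjusted p under 0.05, 2 of them were higher, as were 781 of all 23782 genes tested.

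Promoters from RefSeq on GRCm38.p6, spanning 250 bases before to 50 bases after a gene's start, were at hand for 66 of the 86 members, with the first listed start used. The letters CCGGAAG, the core that factors of the ETS family bind, stood on either strand in 24 of 66 (36.4%), against 9.12% of 27025 promoters of the same length. The letters TGACGTCA stood in 7.58% against 1.88% and TATAAA in 9.09% against 14.2%. A cytosine followed by 4 pyrimidines began the transcript in 13 of 66 (19.7%), against 2.49% of all promoters. The 24 with the ETS core included *Rpl39* as well as *Rpl39l*, which had it at positions -146 and -92 from its start. The windows of 30 bases around them are shown with the core in capitals, on the plus strand of GRCm38.p6 at chr16:10170071-10170100 and chr16:10170125-10170154.
Rpl39l window 1: aacagacatccCCGGAAGactagcaagcgc
Rpl39l window 2: atttgccgtacCCGGAAGcgctggaagcta
No measurement here bears on binding at these letters.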

How the data were processed

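The analysis used the 6 testis RNA-seq libraries of WT, *10xPerf* and *10xBulge* mice, and the other 20 samples of the study (immunoprecipitations) were not analysed here. The authors mapped single-end reads with salmon to GRCm39 (Ensembl annotation) with its GC correction and deposited the gene-level counts as normalized by DESeq2, a signal that is not whole reads. They also deposited log2 fold changes and adjusted p-values of both lines against wild type in 4 columns, which were not used. Dividing by the worth of 1 read gave roughly 41.1 to 61.6 M reads per library.

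A gene was tested if it had 10 or more in 2 or more libraries. The fit of log2(value + 1) used limma 3.58.1 (R 4.3.3) with a term per genotype over all 6 libraries and a mean-variance trend. P-values were adjusted by Benjamini-Hochberg over all 23782 genes, with a threshold of 0.1. A count test was planned only for a table of whole-number counts, and it was not run, as the table holds normalized values. Fold changes on this scale understate those of low genes. Ratios and shares were tested by exact two-sided permutation (scipy 1.17.1). The procedure was tested on simulated data. The members, lists and tests were chosen with earlier results of these data known. Members were named if they were paralogues or their partners, stalk genes, past the threshold, among the 3 highest or lowest, or differed by more than 2 between replicates, and in each other list up to 4 genes with the smallest p in *10xBulge*. *Rpl10-ps3* and the split by X chromosome were added after the values were seen. Lengths, exons and positions are from GENCODE on GRCm38, with the principal transcript of all 86 members. A result of the other gene lists is not reported here. No member has an entry in the column of genes with the same sequence in the deposited table.

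Alternatives were scaling by library totals or upper quartile, a filter of at least 1 in 1 library or of 10 in every library, only the genotypes compared, pseudocounts of 0.1 and 10, no trend, a threshold of 0.05, genes summed with their -ps rows (62 members, 296 rows), each library left out and, chosen after seeing the data, each library's trend with GC content removed (loess, span 0.3), the share over protein-coding genes and *Rpl10* with *Rpl10-ps3* added.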

Additional observations from a re-analysis of the deposited data

How the results depend on the processing

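With 2 libraries per genotype, values that rest on 1 library are frequent, and a lone library was assumed to vary like the others. Against wild type, the 4 higher members in *10xBulge* became 12 under library totals, 7 under the upper quartile and 8 with the GC trend removed (chosen after seeing the data). Higher calls among all genes went from 2712 to 5789, 3241 and 3958 in these settings. The 1 lower member became 3 with the GC trend removed, where lower calls among all genes went from 5466 to 6230. The median of 0.05 became 0.43 under library totals, where that of all genes was 0.36. Against *10xPerf*, the 4 higher became 11 under library totals, 7 under the upper quartile and 8 with the GC trend removed. Higher calls among all genes went from 3077 to 5122, 3967 and 3905. The 4 became 2 each under a filter of at least 1 in 1 library, with only the genotypes compared, with no trend and at an adjusted p under 0.05. The filter, the genotypes compared alone and no trend gave 2660, 2711 and 2634 higher calls among all genes. The 0 lower became 5 with the GC trend removed, where lower calls among all genes went from 5729 to 6500. Between *10xPerf* and wild type, the difference in the log2 ratio of *Rpl10l* over *Rpl10* of -0.23 turned to 0.087 without WT replicate 1, with a range of -0.55 to 0.087 over the libraries left out, and the difference in share of -0.0678 points turned to 0.0137 without WT replicate 1 and 0.0772 without *10xPerf* replicate 1 (range -0.213 to 0.0772). Signs of single members that did not pass the test turned as follows. *Rpl10l* in *10xBulge* against wild type turned to 0.13 under library totals and 0.048 without WT replicate 1 (range -0.56 to 0.048 over the libraries left out), and against *10xPerf* to -0.17 without *10xPerf* replicate 1 and -0.12 without *10xBulge* replicate 1 (-0.17 to 0.38). In *10xPerf* against wild type, *Rpl10* turned to 0.0035 under library totals and 0.33 without *10xPerf* replicate 1 (-0.59 to 0.33), *Rpl39* to 0.33 without *10xPerf* replicate 1 (-0.77 to 0.33) and *Rps4x* to -0.11 without *10xPerf* replicate 2 (-0.11 to 1.22). The cause was not tested. Over 15 alternatives against wild type, *Rps4x* stayed past the threshold in 14, *Rpl39l* and *Rpl7l1* in 13, *Rpl10* in 12 and *Rpl36a* in 11, with no change of sign. No paired analysis was possible because the library numbers differ between the genotypes.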
